A study of Rattus norvegicus with 8 samples.

Results

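Glycolytic enzymes and hypoxia-inducible genes were followed in the kidney that remains after its partner is removed. The set holds 36 genes chosen by name, 17 glycolytic enzymes and 19 other genes that respond to hypoxia or act beside them, and the groups are described separately. A RefSeq accession led from a probe to 34 of the 36 genes, with no probe matched to Pfkp or Egln1. After the filter on dim probes 29 remained, 14 enzymes and 15 of the other genes, among 19865 genes tested on the arrays.

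Glycolysis splits glucose into pyruvate, and lactate dehydrogenase turns pyruvate into lactate when it is not burned in mitochondria. In low oxygen the hypoxia-inducible factors (HIF), pairs of an alpha subunit and ARNT, bind DNA at the core letters ACGTG or GCGTG and raise many of these genes. In normal oxygen prolyl hydroxylases mark the alpha subunits for destruction through VHL. In the kidney the proximal tubule burns fat and makes glucose, while glycolysis is strong in the distal tubule and in the poorly oxygenated medulla.

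The nephrectomized group held 4 male rats of the inbred F344/NSlc strain, 10 weeks old, whose right kidney was sampled after unilateral nephrectomy, in which the opposite kidney is taken out. The sham group was 4 rats of the same strain, sex and age after a sham operation. Kidneys were taken 2 days after the operation by the series text, but the source labels say 2 days for nephrectomized and 1 day for sham samples, so nephrectomy and a day's difference in sampling cannot be told apart here. RNA of each sample was hybridised to its own 1-colour Agilent array, with 2 nephrectomized and 2 sham samples on each of 2 slides. Whole kidney was used, so a change in the share of a cell type and a change in RNA per cell cannot be told apart.

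Levels are the log2 intensity of a probe minus the 75th percentile of its array, so each is relative to the rest of that sample's mRNA, and levels of different probes are not set against each other. Of the 41012 probes at most 65.5% (nephrectomized rat 4) and at least 54.8% (sham rat 1) were well above background, and 0 were saturated. In a principal component analysis the first component divided nephrectomized from sham rats, and sham rat 1 lay apart on the second. Of 73 markers of nephron segments, other kidney cells, blood, fat and adrenal cortex, 55 were tested, and 1 was called, where 3.59% of all genes were. It was Aqp4, a water channel of the collecting duct (log2 fold change 0.61, adjusted p = 0.0253 by limma). Markers of the labelled tissue were present, with 8 of 8 for the proximal tubule, 5 of 5 for the thick ascending limb and 5 of 5 for podocytes past the filter. Those of the proximal tubule gave 0 calls (0 also at an unadjusted p under 0.05), with a median log2 fold change of -0.06 and a mean level relative to sham of -0.19 to 0.06 in nephrectomized rats and -0.03 to 0.06 in sham rats. Besides Aqp4, the endothelial Kdr and fibroblast Col1a1 were higher at an unadjusted p under 0.05 in limma. Lower at that threshold were Cldn10 of the thick ascending limb, the osmolyte gene Slc5a3 and the endothelial Pecam1. Of all genes 10.1% were higher and 7.6% lower at it. Median log2 fold changes were -0.56 for 2 red cell genes tested and -0.55 for 3 adipocyte markers, with 0 calls. The mean level relative to sham of the red cell genes was -1.14 to 0.08 in nephrectomized rats and -1.54 to 1.71 in sham rats. For the adipocyte markers these ranges were -0.79 to 0.03 and -0.32 to 0.37, so the groups overlapped in both lists. The part of all these markers in the results was not tested. Precision is limited by the number of arrays (4 in each group). The p-values set the difference of the group means against the spread between rats within groups, which limma moderates over all genes.

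The data show small shifts. Among the 14 glycolytic enzymes, the log2 fold change (nephrectomized minus sham) was positive for 13 and had a median of 0.16, or 1.11-fold, where 49.9% of all genes tested were positive and the median of all genes was -0.00041. Of these enzymes 1, Ldha, rose at an adjusted p below 0.05 in limma, with p-values adjusted over all genes by the Benjamini-Hochberg method, and 0 fell. Across all genes tested 2.57% were called higher and 1.02% lower, against which 1 of 14 is a single call. Of the 15 hypoxia-inducible and related genes, 1, Ankrd37, passed and fell, 0 rose, and 8 had a positive log2 fold change, with a median of 0.03. At an unadjusted p under 0.05, 5 enzymes were higher and 0 lower, and 2 of the other genes were higher and 4 lower, against 10.1% and 7.6% of all genes. No confidence interval of the 29 genes reached a 2-fold change in either direction, and their fold changes lay between 0.772 and 1.29.

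**Figure D1:**
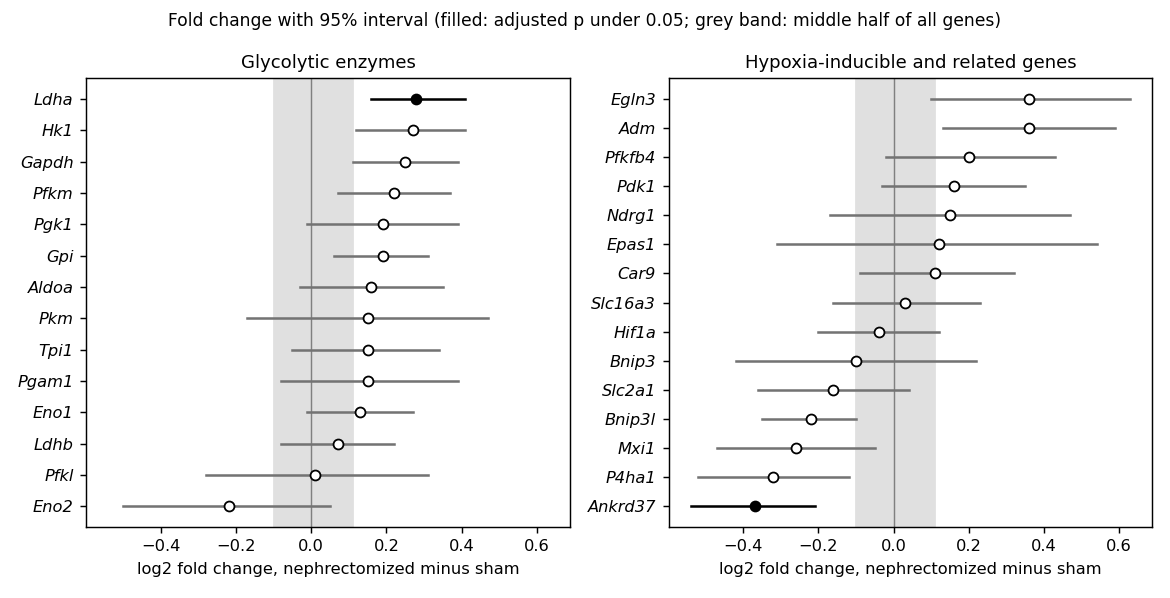
Log2 fold change (nephrectomized minus sham, x axis) of the 29 tested genes, 4 rats per group, with 95% confidence intervals from limma as bars, filled points for the called genes and a grey band from -0.10 to 0.11 for the interquartile range of all genes. Of the 14 enzymes 13 lie right of 0, with a median of 0.16, while the 15 other genes lie on both sides, from -0.37 to 0.36.

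Ldha encodes the A chain of lactate dehydrogenase, the form that favours making lactate. Its level was 2.75, 2.69, 2.72 and 2.76 in nephrectomized rats 1 to 4, against 2.47, 2.50, 2.40 and 2.43 in sham rats 1 to 4. Every nephrectomized rat lay above every sham rat, with a spread inside each group (SD 0.03 and 0.05, n = 4 each) far smaller than the gap. Ldha was 1.22-fold higher (95% interval 1.12 to 1.32, log2 fold change 0.28, SE 0.05, adjusted p = 0.0275 by limma), with 0.24 on slide 1 and 0.33 on slide 2. Its call held when sham rat 1 or nephrectomized rat 3 was left out and was lost without any of the other 6 rats, with adjusted p between 0.0471 and 0.103 over the 8 fits. The partner chain Ldhb, which favours lactate use, had a log2 fold change of 0.07 (95% interval -0.08 to 0.22, adjusted p = 0.648), and the difference between the chains was not tested.

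Ankrd37, an ankyrin repeat protein known as a HIF target, moved the other way. Its level was 2.97, 3.09, 3.23 and 3.22 in nephrectomized rats and 3.49, 3.53, 3.49 and 3.49 in sham rats. All 4 sham rats lay within a narrow band (SD 0.02) above every nephrectomized rat (SD 0.12). Ankrd37 fell to 0.772 of the sham level (95% interval 0.690 to 0.864, log2 fold change -0.37, SE 0.07, adjusted p = 0.0275 by limma), with -0.48 on slide 1 and -0.27 on slide 2. Leaving out nephrectomized rat 1 or 3 kept the call, and leaving out any other rat ended it (adjusted p 0.031 to 0.0883 over the 8 fits).

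The promoters of these genes and of Gapdh and P4ha1, described below, are shown as examples, chosen among genes whose groups did not overlap and whose promoter holds several copies of the HIF core letters. Each covers 250 bases before and 50 bases after the start of the gene in RefSeq's GRCr8 assembly, read 5′ to 3′ on the gene's strand, with capitals at ACGTG or GCGTG or their reverse complements CACGT and CACGC (in CACGTG the letters of both strands overlap). The Ldha promoter is chr1:106507842-106508141 on the plus strand, that of Ankrd37 is chr16:53001257-53001556 on the plus strand, that of Gapdh is chr4:159652418-159652717 on the minus strand and that of P4ha1 is chr20:27844796-27845095 on the plus strand.
Ldha: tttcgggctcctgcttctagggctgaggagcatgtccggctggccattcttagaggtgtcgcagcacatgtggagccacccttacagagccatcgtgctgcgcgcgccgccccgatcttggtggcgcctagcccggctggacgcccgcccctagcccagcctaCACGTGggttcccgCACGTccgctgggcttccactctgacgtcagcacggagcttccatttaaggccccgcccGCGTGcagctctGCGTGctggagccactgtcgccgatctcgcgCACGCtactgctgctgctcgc
Ankrd37: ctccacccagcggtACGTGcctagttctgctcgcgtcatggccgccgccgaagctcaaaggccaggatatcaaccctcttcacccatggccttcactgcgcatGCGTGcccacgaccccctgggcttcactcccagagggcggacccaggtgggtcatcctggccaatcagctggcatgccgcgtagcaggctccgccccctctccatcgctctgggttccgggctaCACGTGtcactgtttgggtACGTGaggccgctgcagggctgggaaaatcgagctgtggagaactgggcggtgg
Gapdh: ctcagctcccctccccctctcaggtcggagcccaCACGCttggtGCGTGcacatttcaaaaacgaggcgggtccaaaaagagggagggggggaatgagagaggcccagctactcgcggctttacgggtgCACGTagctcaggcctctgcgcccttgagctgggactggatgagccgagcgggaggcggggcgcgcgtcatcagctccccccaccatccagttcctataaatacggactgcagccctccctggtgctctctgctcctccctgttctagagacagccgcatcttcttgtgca
P4ha1: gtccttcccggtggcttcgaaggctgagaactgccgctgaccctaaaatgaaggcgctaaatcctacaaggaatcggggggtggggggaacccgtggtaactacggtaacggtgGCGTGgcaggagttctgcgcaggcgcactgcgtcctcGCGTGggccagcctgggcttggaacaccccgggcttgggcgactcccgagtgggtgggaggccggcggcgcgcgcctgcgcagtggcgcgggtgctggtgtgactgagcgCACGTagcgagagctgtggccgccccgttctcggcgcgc

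The Ldha window held 6 matches in 5 stretches, that of Ankrd37 5 matches in 4 stretches, and those of Gapdh and P4ha1 held 3 each. Ldha and Ankrd37, with the most matches of the 4, had log2 fold changes of opposite sign. Slc2a1, Bnip3 and Pdk1, whose promoters are not shown, held 4 each. Of the 16 enzymes whose promoter was found 13 held at least 1 match (81.2%), as did 11 of 16 hypoxia-inducible and related genes (68.8%), against 41.6% of the 33469 windows of that length, where a gene with several windows counts once among the members and each window counts among the rest. A match describes letters in the window, not a bound site.

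Along the pathway, the enzymes whose groups did not overlap stood at several steps. Besides Ldha these were Hk1, Gpi, Pfkm and Gapdh, so that 5 of 14 enzymes (35.7%) had every nephrectomized rat above every sham rat, where 7.59% of all genes did. None of these 4 passed the adjusted threshold. Hk1 is the hexokinase that traps glucose as glucose 6-phosphate. Its level was 3.59, 3.47, 3.47 and 3.56 in nephrectomized rats and 3.36, 3.25, 3.23 and 3.19 in sham rats, a log2 fold change of 0.27 (SE 0.06, adjusted p = 0.0597). The lowest nephrectomized value stood above the highest sham value, that of sham rat 1, and the second Hk1 probe gave the same 0.27 (adjusted p = 0.199 with every probe tested on its own). Hk2, the inducible hexokinase, was well above background on 0 of 8 arrays.

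Gpi, which converts glucose 6-phosphate to fructose 6-phosphate, had 5.56, 5.53, 5.56 and 5.52 in nephrectomized rats and 5.43, 5.34, 5.30 and 5.36 in sham rats. The fold change was 1.14 (95% interval 1.05 to 1.24, adjusted p = 0.11). Phosphofructokinase makes the committed step. Its muscle form Pfkm had 3.19, 3.27, 3.17 and 3.22 in nephrectomized rats and 2.90, 2.99, 2.96 and 3.13 in sham rats, a fold change of 1.16 (95% interval 1.05 to 1.29, adjusted p = 0.127). Sham rat 4 lay just under the lowest nephrectomized rat. The liver form Pfkl had a log2 fold change of 0.01 (95% interval -0.28 to 0.31), and the difference between the forms was not tested.

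Gapdh, which oxidises glyceraldehyde 3-phosphate and is often used as a reference gene, had 7.74, 7.67, 7.70 and 7.66 in nephrectomized rats and 7.55, 7.43, 7.36 and 7.44 in sham rats. All nephrectomized rats were higher, with a log2 fold change of 0.25 (SE 0.06, 1.19-fold, adjusted p = 0.0684), and a second probe gave 0.23. Hk1 and Gapdh passed when sham rat 1 was left out (adjusted p = 0.0494 and 0.0465). Over all alternatives the adjusted p of Hk1 ran from 0.0268 to 0.701 and that of Gapdh from 0.0172 to 0.712. Without that rat 7 enzymes had groups apart, with Eno1 and Pkm added, but so did 11.2% of all genes.

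The enzymes between and after these steps gave smaller or more scattered differences. The log2 fold change was 0.16 for Aldoa, which splits fructose 1,6-bisphosphate, and 0.15 for Tpi1, which interconverts the products. Pgk1, which makes ATP, had 0.19 and Pgam1, the mutase, had 0.15. In all 4 the highest value was that of nephrectomized rat 3 (5.62 for Aldoa, 3.74 for Tpi1, 5.22 for Pgk1 and 7.81 for Pgam1), and without that rat the log2 fold changes were 0.10, 0.07, 0.12 and 0.07 in the same order. Nephrectomized rat 3 was the highest of its group for 5 of 14 enzymes and nephrectomized rat 1 for 6. Eno1, the widespread enolase, had 0.13 and Pkm, a pyruvate kinase, 0.15, and the adjusted p of these 6 enzymes lay between 0.314 and 0.625. Pkm ran from 0.07 without nephrectomized rat 1 to 0.28 without sham rat 1.

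Eno2, the neuronal enolase, was the enzyme with a negative log2 fold change, -0.22 (95% interval -0.50 to 0.05, adjusted p = 0.385). With normexp background correction it was -0.03. Aldoc, the brain aldolase, was well above background in 3 of 4 nephrectomized and 3 of 4 sham rats and was not tested. As a group the tested enzymes had a median difference from the sham mean of 0.16, 0.08, 0.21 and 0.17 in nephrectomized rats 1 to 4, against 0.06, -0.01, -0.04 and 0.02 in sham rats 1 to 4. The lowest nephrectomized rat, rat 2, lay just above the highest sham rat, rat 1.

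**Figure D2:**
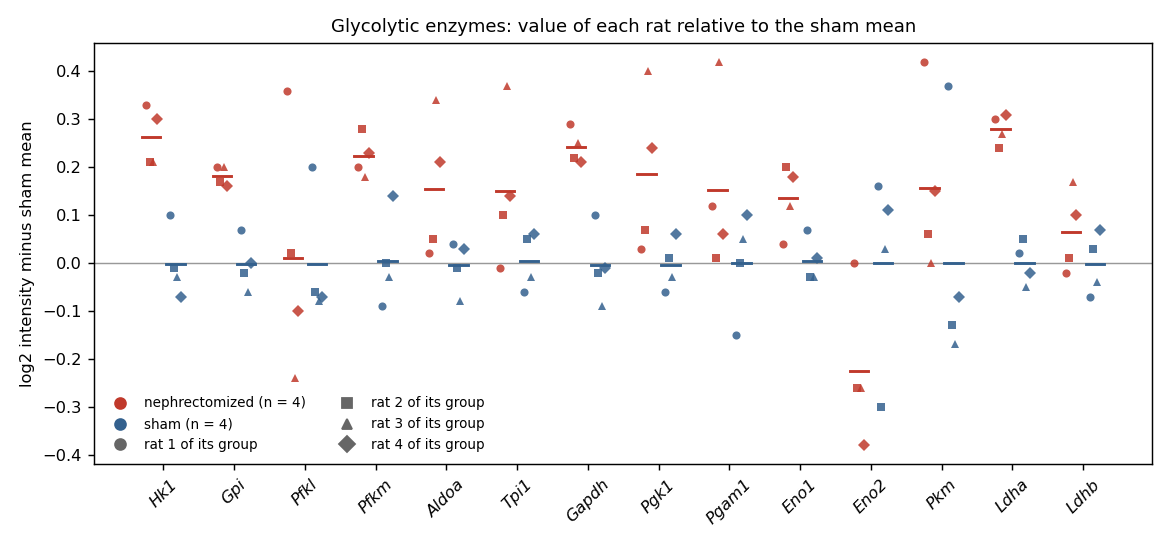
Level of each tested glycolytic enzyme minus its sham mean (log2 units, y axis) in every rat, with a point per rat, nephrectomized left of sham in each pair, shaped by rat number, and the group means as bars. The points of Ldha, Hk1, Gpi, Pfkm and Gapdh do not overlap between groups, while nephrectomized rat 3 stands highest of its group for Aldoa, Tpi1, Pgk1 and Pgam1.

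Among the genes that sense oxygen, the HIF alpha subunits showed no called change in mRNA. Hif1a had a log2 fold change of -0.04 (95% interval -0.20 to 0.12, adjusted p = 0.836), with 0.01 on its second probe, and Epas1, which encodes HIF-2 alpha, had 0.12 (95% interval -0.31 to 0.54, adjusted p = 0.802), with 0.29 without nephrectomized rat 3 and 0.02 without nephrectomized rat 2. Their activity is set mostly by protein stability, which arrays do not measure. Egln3, a prolyl hydroxylase that HIF itself induces, had 0.08, -0.06, 0.12 and -0.13 in nephrectomized rats and -0.66, -0.35, -0.30 and -0.13 in sham rats. The groups met at -0.13, and the fold change of 1.29 did not pass (log2 fold change 0.36, SE 0.12, adjusted p = 0.147).

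Neither measured transporter among the members was called. Slc2a1, the widespread glucose transporter GLUT1, had 2.23, 2.01, 1.84 and 1.93 in nephrectomized rats and 2.19, 2.15, 2.21 and 2.12 in sham rats, with nephrectomized rat 1 above and the other 3 below all sham rats (log2 fold change -0.16, SE 0.09, adjusted p = 0.387). For Slc16a3, which exports lactate, the difference was 0.03 (95% interval -0.16 to 0.23), and its sign turned with normexp. Pfkfb4, which makes the activator of phosphofructokinase, had 0.20 (adjusted p = 0.338), and Pdk1, which holds pyruvate back from the mitochondria, had 0.16 (adjusted p = 0.385), with 0.05 to 0.20 over its 4 probes. Slc2a3, a glucose transporter of neurons, was well above background on 0 of 8 arrays. Pfkfb3, an inducible relative of Pfkfb4, was well above background in 1 of 4 nephrectomized and 1 of 4 sham rats.

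The targets with other roles were divided in sign. Adm, the vasodilator peptide adrenomedullin, had 2.50, 2.25, 2.65 and 2.59 in nephrectomized rats and 2.04, 2.07, 2.12 and 2.30 in sham rats. Only nephrectomized rat 2 and sham rat 4 crossed, and the fold change was 1.29 (log2 fold change 0.36, 95% interval 0.13 to 0.59, adjusted p = 0.0975). It passed with slide as a block (adjusted p = 0.0478) and without nephrectomized rat 2 (0.0452), within a range of 0.0452 to 0.636 over all alternatives. Epo, the red cell hormone erythropoietin, was well above background on 0 of 8 arrays. The log2 fold change of Car9, a carbonic anhydrase at the cell surface, was 0.11 (adjusted p = 0.576), and that of Ndrg1, a stress-induced protein, was 0.15 (adjusted p = 0.634). With a rat left out Car9 lay at 0.05 to 0.17, and Ndrg1 was 0.02 without nephrectomized rat 3.

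Ankrd37 was joined on the low side by Bnip3l and P4ha1, so that 3 of 15 genes had every nephrectomized rat below every sham rat, against 5.09% of all genes, and 0 of 15 the reverse. Bnip3l is a receptor that marks mitochondria for removal. It had 5.03, 4.99, 4.93 and 4.98 in nephrectomized rats and 5.25, 5.23, 5.16 and 5.19 in sham rats. The spread was 0.04 (SD, n = 4) in each group, and the level was 0.857 of sham (95% interval 0.787 to 0.933, adjusted p = 0.0647), without passing the threshold. Its paralog Bnip3 overlapped widely, with 3.72, 3.64, 4.14 and 3.71 in nephrectomized rats and 3.58, 4.00, 4.03 and 4.00 in sham rats (log2 fold change -0.10, SE 0.14, adjusted p = 0.781). The value was -0.21 without nephrectomized rat 3, -0.21 without sham rat 1 and -0.04 without nephrectomized rat 2.

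P4ha1 encodes the catalytic subunit of the prolyl hydroxylase of collagen. Its level was 0.07, -0.08, 0.21 and 0.06 in nephrectomized rats and 0.25, 0.33, 0.42 and 0.55 in sham rats. The groups were separated by a narrow gap between nephrectomized rat 3 and sham rat 1, with a level of 0.801 of sham (95% interval 0.697 to 0.920, adjusted p = 0.0955, and 0.0493 with slide as a block, within 0.0493 to 0.627 over all alternatives). Mxi1, an antagonist of Myc, had -0.37, -0.16, -0.54 and -0.22 in nephrectomized rats and -0.09, 0.03, -0.02 and -0.18 in sham rats, where nephrectomized rat 2 and sham rat 4 crossed (0.835 of sham, adjusted p = 0.19).

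**Figure D3:**
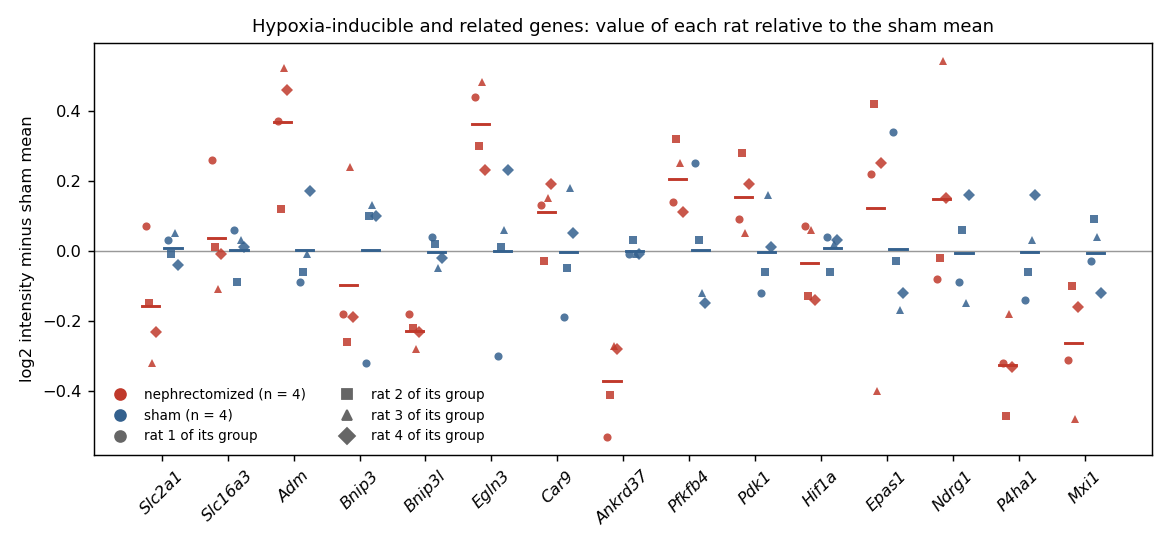
Level of each tested hypoxia-inducible or related gene minus its sham mean (log2 units, y axis) in every rat, with a point per rat, nephrectomized left of sham in each pair, shaped by rat number, and the group means as bars. Ankrd37, Bnip3l and P4ha1 lie wholly below their sham rats, and Adm and Egln3 lie mostly above theirs.

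The enzymes were mostly positive on both slides, and the other genes were divided on both. The median log2 fold change of the enzymes was 0.12 on slide 1 and 0.20 on slide 2, with 13 and 12 of 14 positive. For the hypoxia-inducible and related genes it was -0.02 and -0.06, with 7 of 15 positive on each slide. Bnip3l had -0.23 and -0.22, whereas Ndrg1 changed sign between the slides (-0.04 and 0.34). With slide as a block, limma called 1 enzyme higher, and of the other genes 1 higher (Adm) and 2 lower (Ankrd37 and P4ha1), where 2.84% of all genes were called higher and 1.2% lower.

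**Figure D4:**
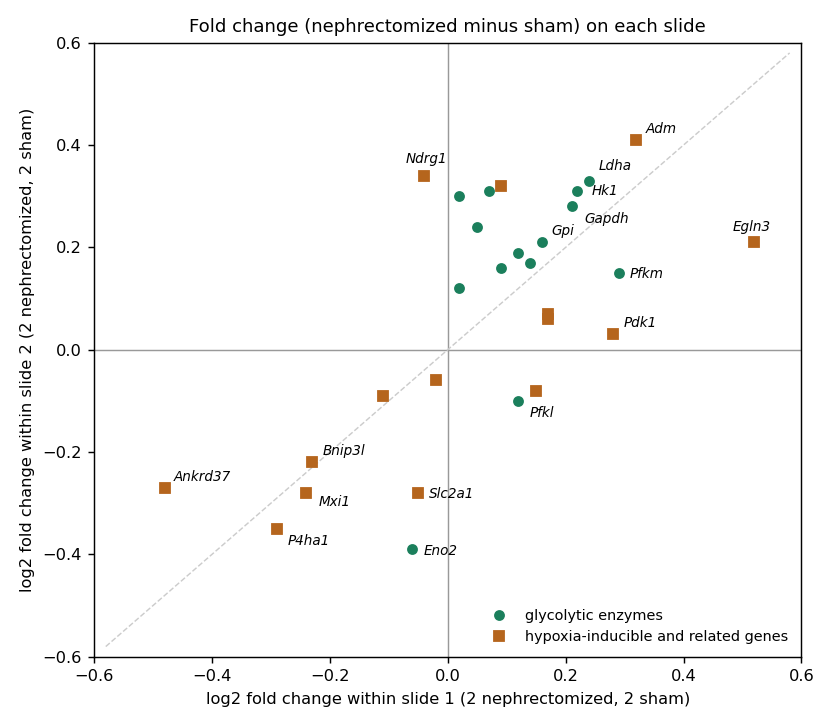
Log2 fold change (nephrectomized minus sham) within slide 1 (x axis) and within slide 2 (y axis), each from 2 nephrectomized and 2 sham rats, with 1 point per gene and the dashed line at equal values. Ldha, Hk1, Gapdh and Gpi lie above 0 on both slides and Ankrd37, Bnip3l, P4ha1 and Mxi1 below 0 on both.

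**Figure D5:**
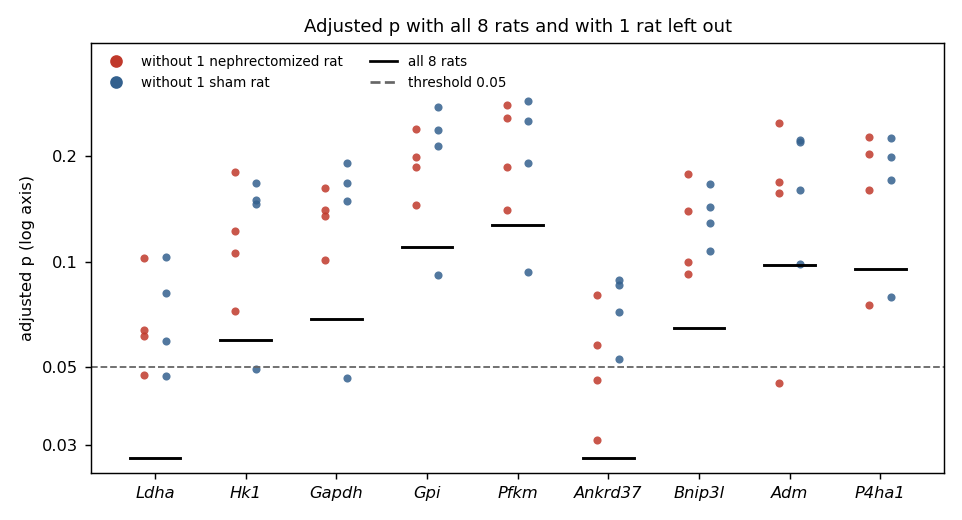
Adjusted p from limma (y axis, log scale) with all 8 rats (black bars) and with 1 nephrectomized or 1 sham rat left out (points), for the called genes, those whose groups do not overlap and Adm, with the threshold of 0.05 dashed. Ldha lies between 0.0471 and 0.103 and Ankrd37 between 0.031 and 0.0883, and 1 point each of Hk1 (0.0494), Gapdh (0.0465) and Adm (0.0452) falls under the threshold.

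Other genes of glucose use and of the hypoxia response were taken from wider lists. Of 42 other genes of glucose metabolism 34 were tested, with a median log2 fold change of -0.01 and 15 of 34 positive. Of the 34, 2 were called higher and 0 lower, where 2.57% and 1.02% of all genes were. Pfkfb1, the liver and muscle form of the enzyme that controls phosphofructokinase, had -3.04, -2.96, -3.09 and -2.87 in nephrectomized rats and -3.96, -4.45, -4.25 and -4.37 in sham rats. The probe exceeded background clearly in 4 of 4 nephrectomized and 1 of 4 sham rats, so it passed the filter only through the nephrectomized group and its sham level was measured in 1 rat. The log2 fold change was 1.27 (adjusted p = 0.00108 by limma). Because the filter let this gene in through the group where it was high, this p-value is not read as support for a rise. Under normexp the log2 fold change was 0.58 (adjusted p = 0.00894), so its size depended on the background correction. With the filter on all 8 arrays Pfkfb1 was not tested, which left 3 in place of 4 calls in the wider lists together. Pgm2, a phosphoglucomutase, had a log2 fold change of 0.33 (SE 0.07), a 1.26-fold rise at an adjusted p of 0.0474, and kept its call in 0 of 8 fits that left out a rat (adjusted p 0.0554 to 0.134). The call was also lost in other fits, among them normexp (0.0569), no filter (0.192) and every probe tested on its own (0.0516), within a range of 0.0257 to 0.534 over all alternatives. The log2 fold change of Pklr, the pyruvate kinase of kidney and liver, was -0.31 (adjusted p = 0.129).

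Of 39 other HIF targets 31 were tested, with a median of -0.02. At the adjusted threshold 1 rose and 1, not reported by name here, fell, where 2.57% and 1.02% of all genes did. Tfrc, the transferrin receptor that brings iron into cells and is also set by iron itself, had 3.75, 3.58, 3.75 and 3.30 in nephrectomized rats and 2.31, 2.09, 1.89 and 2.10 in sham rats. The lowest nephrectomized rat stood far above the highest sham rat, a 2.81-fold rise (95% interval 2.31 to 3.42, adjusted p = 0.00108) that kept its call without any single rat. Vegfa, the vascular growth factor, named after its values were seen, had -0.05 (95% interval of the fold 0.739 to 1.27, adjusted p = 0.924).

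Among 12 tested of 16 regulators of HIF, limma called 0, where 3.59% of all genes were called. At an unadjusted p under 0.05, 2 were higher and 0 lower, against 10.1% and 7.6% of all genes. The regulators with the smallest p were Arnt2, a partner of the alpha subunits (log2 fold change 0.20, adjusted p = 0.222), and Elob and Rbx1, parts of the VHL ubiquitin ligase (0.14 and 0.13, adjusted p = 0.232 and 0.333). Vhl had 0.05 and Hif1an, which blocks the activity of the alpha subunits in normal oxygen, had 0.01. Arnt was well above background in 3 of 4 nephrectomized and 3 of 4 sham rats and was not tested.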

How the data were processed

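The authors scanned 1-colour Cy3 arrays and extracted each spot's intensity, on a linear scale, by means of Agilent Feature Extraction (version 10.5.1.1, with the GE1_105_Dec08 protocol), per the file headers. The deposited processed intensity is background-subtracted within the array and not normalized between arrays, per the file headers. The deposited table of log2 values for 30448 probes matched the log2 intensity minus the 75th percentile, centred per probe (r = 0.999898 across probes), with column medians of -0.0169 to 0.0152, and served as an alternative.

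Here, control spots and outlier spots were removed, spots of a probe were averaged as log2 values, and each array's 75th percentile was subtracted. Probes well above background (in at least a share of 0.5 of their spots) on every array of the nephrectomized or of the sham group stayed in (23982 of 41012). RefSeq accessions gave symbols through a GRCr8 gene table (18713 probes, 14400 symbols). No other name column was used, and since the array annotation is rn4, no array coordinates are given. The brightest probe stood for a gene. Of the members, 8 had several probes passing, with opposite signs in 1, Hif1a.

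Groups were compared over all 19865 genes in R 4.3.3 by limma 3.58.1, with a two-sided moderated test from lmFit and eBayes, no covariates and Benjamini-Hochberg adjustment, with a threshold of 0.05. Tested on simulated data for this comparison (19795 genes), it called 5% of 100 genes changed by 0.3 on the log2 scale and 78% of 100 changed by 1.0. Only these genes were changed there, with noise at each gene's SD within groups. The data gave 714 calls, so these shares are not the power in the data. Counts of groups without overlap used the 19795 genes measured in every rat. The members, lists and tests were chosen with earlier results of these data known. All members are named. Of the other lists, the genes past the threshold, otherwise up to 3 with the smallest p, and Pklr, Vhl, Hif1an and Arnt are named. Some genes that meet this rule are left out here. Alternatives were quantile normalization, the median of bright probes, normexp (offset 50, on the median spot intensity), the deposited table, no filter, a stricter filter (all 8 arrays), the mean of probes, every probe, an intensity trend with robust estimation, a threshold of 0.01, the replicate number or slide as a block, each slide alone and each rat left out. Samples with the same replicate number correlated at 0.103, 0.0112, 0.101 and -0.0176 in their deviations, so the numbers were not taken as pairs.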

Additional observations from a re-analysis of the deposited data

Results flagged for a closer look

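For each tested member and named gene, and for the medians of both member lists, a rat standing far from the other 3 of its group was looked for with Dixon's test. Of 80 groups, 3 held such a value, where chance flags about 1 in 20 groups (5%). Pfkl was high in sham rat 1 (-0.56, against -0.84 to -0.82 in the other sham rats). Bnip3 was high in nephrectomized rat 3 (4.14) and low in sham rat 1 (3.58).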

How the results depend on the processing

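Over 11 settings that used all 8 arrays, 1 of 319 log2 fold changes of the 29 members turned its sign. Many of the 319 could not turn. An intensity trend and either block leave a log2 fold change as it is, and the filters and every probe kept each member's probe. The deposited table held nearly the same values, centred per probe. The count of 319 is therefore not a measure of stability. With a rat left out 5 of 232 turned, in 2 members. Genes called numbered 714, against 909 with an intensity trend and 802 with slide as a block. Lower counts were 282 with no filter, 296 with the replicate block, 260 at a threshold of 0.01, 0 within slide 1, 141 within slide 2, and 341 to 666 with a rat left out. The count of 1 enzyme called higher became 0 with no filter (Ldha adjusted p = 0.147), with the replicate block (0.0974), at a threshold of 0.01 and within slide 1 or 2, 4 with an intensity trend (Hk1, Gpi and Gapdh added), 3 without sham rat 1, and 0 to 3 with a rat left out. Of the hypoxia-inducible and related genes, 1 was called higher with slide as a block and 0 to 1 with a rat left out. The 1 called lower became 0 with no filter (Ankrd37 adjusted p = 0.129), with the replicate block (0.0869), at a threshold of 0.01 and within slide 1 or 2, 2 with an intensity trend (Bnip3l, adjusted p = 0.0184) or slide as a block, and 0 to 1 with a rat left out. Adjusted p over all alternatives ran from 0.0114 to 0.655 for Ldha, from 0.011 to 0.361 for Ankrd37 and from 0.0184 to 0.66 for Bnip3l. The median log2 fold change of the hypoxia-inducible and related genes, 0.03, became -0.01 with normexp, -0.02 within slide 1 and -0.06 within slide 2. With no filter it was -0.02, but over a larger set that took in the dim members Slc2a3, Pfkfb3 and Epo. The genes tested in the main fit kept their own log2 fold changes there. With a rat left out the median was -0.04 to 0.05. That of the enzymes was 0.12 within slide 1, 0.20 within slide 2 and 0.13 to 0.19 with a rat left out. Other pathway genes called numbered 4, or 2 with no filter, 2 with the replicate block, 2 at a threshold of 0.01, 0 within slide 1, 1 within slide 2 and 2 to 4 with a rat left out. Without sham rat 1, chosen after seeing the data, 7 enzymes had higher groups without overlap, and 1 of the other genes (Pfkfb4) did, against 0 with all rats. Single values near 0 that turned sign were Hif1an (-0.01 with quantile normalization and within slide 1), Slc16a3 (-0.01 with normexp, -0.08 within slide 2), Vhl (-0.05 with normexp, -0.01 within slide 1), Ndrg1 (-0.04 within slide 1) and Pfkl (-0.10 within slide 2). With a rat left out Pfkl lay at -0.10 to 0.10, Slc16a3 at -0.04 to 0.08, Hif1an at -0.03 to 0.07 and Vhl at -0.01 to 0.08. No filter adds genes to the adjustment and single slides hold fewer arrays. The cause of the other shifts was not tested. The log2 fold change of Pfkfb1, well above background in 1 of 4 sham rats, was 1.27 and became 0.58 with normexp. The reason was not tested.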
